A study of Arabidopsis thaliana with 12 samples.

Results

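Transposable elements (TEs) are mobile DNA sequences that plant genomes keep mostly silent by DNA methylation and repressive chromatin. The TEs described here are the few with reads assigned to them in every wild-type seedling library of the series. They are the annotated TEs with an RPKM above 0 in all 3 WT libraries. RPKM is the usual expression unit that divides the reads of a feature by its length and by the reads of its library. Of 31189 annotated TEs of Arabidopsis thaliana, 335 were chosen by this rule (1.07%). They were selected on the WT values themselves, so that their WT levels, and their differences from WT, are given as a description. A further 287 TEs were above 0 in 2 of the 3 WT libraries, 768 in 1 of them, and 1474 in mutant libraries only.

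RNA-directed DNA methylation (RdDM) is the plant pathway in which small RNAs guide methylation to TEs. RNA polymerase IV starts the making of these small RNAs, and RNA polymerase V makes the scaffold transcripts at the target loci. NRPD1 and NRPE1 are the largest, catalytic subunits of polymerases IV and V. PKL (PICKLE) is a chromatin remodeler of the CHD family, known in plants for its part in development.

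Seedlings of 4 genotypes were compared, each with 3 biological replicates: the mutants pkl (allele pkl-1), nrpd1 (allele nrpd1-3) and nrpe1 (allele nrpe1-11), and WT (Columbia), all 2 weeks old and grown on plates. Poly(A) RNA of seedlings was sequenced, so a lower proportion of one tissue and less RNA per cell cannot be told apart. Library totals ran from 15242073 to 21475250 reads, except for 7204299 in nrpe1 replicate 2. The leaf markers ranged over the 12 libraries from 8679 to 11733 RPKM for RBCS1A (a subunit of Rubisco), from 1698 to 3877 RPKM for RCA (Rubisco activase) and from 350 to 3871 RPKM for LHCB2.1 (a light-harvesting chlorophyll-binding protein). The root marker PYK10 (a beta-glucosidase) ranged from 995 to 1644 RPKM. The root marker PIP2-2 (an aquaporin) had 98.7, 84.3 and 111 RPKM in pkl, below the 140, 115 and 142 RPKM in WT, and neither root marker was called in any comparison. The seed marker CRU3 (a storage globulin) was at 0 in all libraries but pkl replicates 1 and 3, at 1.04 and 0.418 RPKM. The seed marker OLEO1 had 1.58, 0 and 0.138 RPKM in pkl, 0, 0 and 0.113 in WT, 0.0594, 0 and 0 in nrpd1, and 0 in nrpe1. PAP85, also a seed marker, had 0.598, 0 and 0.151 RPKM in pkl, against 0.067, 0 and 0.0311 in WT. In nrpd1 and nrpe1 PAP85 was above 0 in every library, from 0.058 to 0.109 RPKM. Neither OLEO1 nor PAP85 was called in any comparison.

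The transcripts of the mutated genes were checked first. NRPE1 had 0.874, 0.394 and 0.655 RPKM in nrpe1, against 1.77, 1.42 and 2.30 RPKM in WT, and NRPD1 had 1.17, 0.764 and 1.15 RPKM in nrpd1, against 1.49, 1.23 and 1.55 RPKM in WT. Both sets of libraries were below all WT libraries. PKL had 20.1, 21.3 and 26.6 RPKM in pkl, against 16.3, 16.1 and 22.5 RPKM in WT, and overlapped WT. RPKM over a whole gene counts reads on either side of a lesion, so a level near that of WT does not speak to the allele.

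The study's supplement lists real-time PCR primers for 9 TEs, and 4 of these are among the 335. Their amplicons are shown because the primers give these TEs a position in the genome, which the deposited table does not give for any TE. Each is printed 5′ to 3′ as read from the TAIR10.1 genome of RefSeq, with the primer sites in capitals:
AT2TE78320: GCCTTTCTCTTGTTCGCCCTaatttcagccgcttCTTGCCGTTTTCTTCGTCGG
AT4TE10320: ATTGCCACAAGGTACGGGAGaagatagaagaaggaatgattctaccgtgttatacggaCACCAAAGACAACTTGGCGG
AT4TE12660: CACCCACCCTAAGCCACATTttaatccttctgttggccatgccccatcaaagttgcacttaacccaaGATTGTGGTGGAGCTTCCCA
AT5TE17325: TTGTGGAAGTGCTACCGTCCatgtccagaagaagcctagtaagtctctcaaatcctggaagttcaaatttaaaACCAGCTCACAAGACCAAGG

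The AT2TE78320 amplicon lies at chr2:17362693-17362746 (plus strand), in an exon of AT2G41650 and inside the span of AT2G41640 outside its exons. The AT4TE10320 amplicon lies at chr4:2193615-2193692 (plus strand), in an exon of AT4G04410, which RefSeq annotates as a pseudogene. The AT4TE12660 amplicon, at chr4:2716961-2717047 (plus strand), lies in no gene, 930 bp from UBQ10 (polyubiquitin) and 949 bp from AT4G05310. The AT5TE17325 sequence occurs at 2 places with identical bases, chr5:4790236-4790328 (plus strand) in the pseudogene AT5G14810 and chr4:15560743-15560835 (minus strand) in the pseudogene AT4G32212. The reads of AT5TE17325 may therefore be shared with this copy, and how the authors' counting treated such reads is not given in the sources used here.

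The 335 TEs had low RPKM values. Whether the reads assigned to them come from transcripts of the TEs or of overlapping genes was not tested. Their mean RPKM over the 3 WT libraries had a median of 0.574, with quartiles of 0.251 and 1.54, and reached 69.2 at most. In comparison, the 21941 genes above 0 in all 3 WT libraries had a median of 8.75 RPKM. Of the TEs, 18 had a WT mean of at least 10 RPKM, 100 lay between 1 and 10, 179 between 0.1 and 1, and 38 were below 0.1.

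Most of these values rested on few reads. Read numbers were recovered from the ratios of RPKM values between libraries and from the common step of each feature's values over the libraries. Only 45 of the 335 TEs had at least 10 reads in each WT library, and 4 had at least 100. At the other end, 81 TEs had no more than 3 reads in any WT library, and 11 had 1 read in each. For the 45 TEs with at least 10 reads, the coefficient of variation over the 3 WT libraries had a median of 31.2%, against 47.6% over all 335. The intervals that such read numbers allow cover counting error only.

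**Figure D1:**
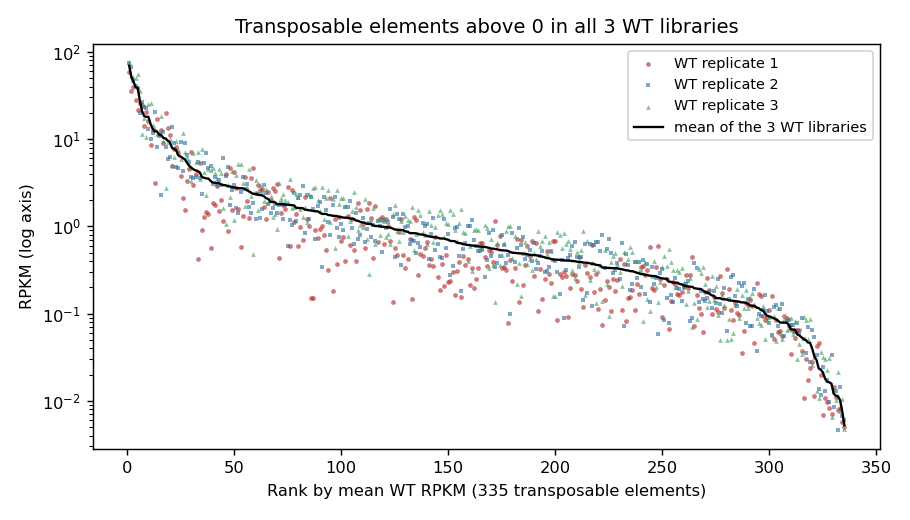
RPKM (log axis) of each of the 335 TEs in the 3 WT libraries (points) and their mean (line), ranked by the mean. The means run from 69.2 down to 0.00525 RPKM, and many of the replicate 1 points lie below the line.

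AT5TE72200, a TE of 1226 bp, had the highest level in WT. It had 46.3, 55.5 and 60.7 RPKM in pkl, 62.7, 73.8 and 65.9 RPKM in nrpd1 and 63.3, 61.1 and 77.8 RPKM in nrpe1, against 58.4, 73.6 and 75.7 RPKM in WT. The mutant and WT libraries overlapped in every genotype. The next in order of WT mean were AT4TE10030 (51.9 ± 16.2 RPKM, SD, n = 3), AT3TE08255 (45.7 ± 6.14), AT5TE72580 (39.4 ± 11.3), AT2TE19930 (38.5 ± 17.1) and AT3TE08240 (27.3 ± 8.13). These neighbours in the order did not differ beyond their spread. AT1TE37060 (20.9 ± 8.29), AT3TE44620 (18.4 ± 4.81), AT1TE37065 (18 ± 6.45) and AT1TE41795 (18 ± 6.24) completed the 10 highest, which took 44.8% to 47.7% of the reads of all 335 TEs in the WT libraries.

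Some of the highest values belonged to very short annotations. AT2TE19930 spans 39 bp, AT3TE08255 41 bp and AT3TE08240 53 bp, so that the 38.5 RPKM of AT2TE19930 in WT stood for 15, 23 and 42 reads. AT5TE72200, by contrast, had 1288, 1376 and 1803 reads in WT. Among all 335 TEs the length ran from 26 to 14302 bp with a median of 387 bp. There were 24 TEs under 100 bp and 71 of at least 1000 bp.

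Of the 10 highest TEs, AT3TE08255 stood farthest from WT in pkl, with 75.2, 85.2 and 90.1 RPKM in pkl, against 39.3, 46.4 and 51.5 RPKM in WT. All pkl libraries were above all WT libraries, and the log2 difference of 0.87 ± 0.15 (SE) was under the 2-fold threshold. The other 9 had log2 differences from WT between -0.82 and 0.63 in all 3 mutants.

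The 335 TEs are spread over the 5 chromosomes, with 72, 63, 59, 60 and 81 on chromosomes 1 to 5, which is 0.913% to 1.21% of the TEs annotated on each. A total of 46 of them stand next to another of the 335 in the annotation, in 23 pairs. AT1TE37060 and AT1TE37065 form such a pair: AT1TE37060 had 19.9, 14.1 and 6.55 RPKM in pkl, against 24.5, 26.7 and 11.4 RPKM in WT, and AT1TE37065 had 15.6, 7.52 and 7.58 RPKM in pkl, against 20.7, 22.7 and 10.6 RPKM in WT. In both TEs the pkl and WT libraries overlapped. Members of such pairs may not be independent of each other, which was not tested.

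The TEs just inside the rule were at the limit of detection. AT3TE53215 had 1 read in each WT library and none in the 9 mutant libraries, where a count of 0 allows up to 3 reads. AT3TE67330 had 1, 1 and 2 reads in WT, and AT2TE25020 had 2, 3 and 2. Just outside the rule, AT2TE86050 had 7, 0 and 10 reads in WT, AT5TE80010 had 0, 12 and 9, and AT4TE89340 had 0, 2 and 2. With so few reads a single read could decide a membership, and only 132 of the 335 TEs would have been kept by a minimum of 3 reads in each WT library.

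In the mutants, 237 of the 335 TEs were above 0 in all 3 pkl libraries, 245 in all 3 nrpd1 libraries and 223 in all 3 nrpe1 libraries, and 158 were above 0 in all 12 libraries. Only 3 were at 0 in all pkl libraries, 7 in all nrpd1 libraries and 15 in all nrpe1 libraries. The share of all TE reads that fell on the 335 was 84.7% to 86.8% in pkl, 68.9% to 70.4% in nrpd1 and 65.8% to 69.5% in nrpe1, against 88.5% to 90.6% in WT. None of the 3 mutants overlapped WT in this share, whose denominator includes the TEs that the rule left out for being at 0 in WT. Since the rule chose TEs by their WT reads, it raises the share in WT by itself, and nothing is read from this difference. Over all annotated TEs, 370 were above 0 in all 3 pkl libraries, 474 in all 3 nrpd1 libraries and 377 in all 3 nrpe1 libraries. Reads of the 335 made up 0.0234% to 0.0403% of the reads in the 12 libraries.

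The first comparison asked which of these TEs differ in the pkl mutant, in which loss of a chromatin remodeler was studied for its effect on silencing. The test took in 23669 features that reached 0.1 RPKM in 3 or more of the 12 libraries, with 306 of the 335 TEs among them. A feature was called higher or lower in limma at a Benjamini-Hochberg adjusted p under 0.05 over all features and a log2 difference of at least 1 on the scale of log2(RPKM + 0.1). This scale understates the change of low features. Since the TEs were selected for being above 0 in WT, their differences from WT lean downward, and counts and differences from WT are given without p-values.

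In pkl, 4 of the 306 TEs were called higher (0.984% of all features were) and 2 lower (0.913% of all features). The median log2 difference was -0.17 over these TEs and 0.07 over all features. The replicate numbers were taken to pair the libraries. With the number as a block 9 TEs were called higher (2.94%, against 1.71% of all features in the same fit) and 10 lower (3.27%, against 1.79%). The count of 2 lower went to 1 without pkl replicate 2 or without any of the WT libraries.

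AT4TE10320, a TE of 5336 bp whose amplicon lies in the pseudogene AT4G04410, had the largest difference in pkl. It had 2.92, 5.90 and 4.48 RPKM in pkl (283, 676 and 382 reads), against 0.115, 0.197 and 0.125 RPKM in WT (11, 16 and 13 reads). All pkl libraries were far above all WT libraries, and the ratio of the means was 30.5. The log2 difference was 4.17 ± 0.28 (SE). In nrpd1 it had 0.344, 0.328 and 0.261 RPKM, and in nrpe1 0.181, 0.208 and 0.154 RPKM, both not called against WT. The row for AT4G04410 is listed at 0 in all 12 libraries.

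AT4TE12660, a TE of 298 bp near UBQ10, had 45.7, 49.2 and 61.6 RPKM in pkl, against 12.9, 11.9 and 14.5 RPKM in WT. All pkl libraries lay above those of the other genotypes, and pkl was higher than WT by 1.98 ± 0.20 on the log2 scale. In nrpd1 it had 9.05, 15.6 and 15.8 RPKM and in nrpe1 15.6, 15.4 and 15.1 RPKM, with log2 differences from WT of 0.00 and 0.23. UBQ10 itself had 910, 680 and 613 RPKM in pkl, against 900, 654 and 570 RPKM in WT, and was not called.

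AT2TE78320, a TE of 167 bp, was high in pkl and nrpd1 and not in nrpe1. It had 19.1, 23.1 and 28.9 RPKM in pkl, 19.1, 29.2 and 24.8 RPKM in nrpd1 and 4.69, 7.48 and 8.52 RPKM in nrpe1, against 6.98, 4.71 and 7.71 RPKM in WT. The pkl and nrpd1 libraries did not overlap those of WT, while the nrpe1 libraries did. The log2 differences from WT were 1.87 in pkl, 1.90 in nrpd1 and 0.08 in nrpe1, each ± 0.27 (SE). Since the primers place this TE in an exon of AT2G41650, the RPKM of that gene is given beside it: 53.4, 48.3 and 42.2 in pkl, 25.3, 40.5 and 40.4 in nrpd1 and 40.7, 40.1 and 46.1 in nrpe1, against 36.3, 57.2 and 47.0 in WT. AT2G41640 had 8, 22.8 and 17.4 RPKM in pkl, 9.76, 16.6 and 11.4 RPKM in nrpd1 and 3.89, 12.0 and 8.92 RPKM in nrpe1, against 4.01, 12.3 and 8.62 RPKM in WT. In pkl and nrpd1 it was above the WT library of the same number in 3 of 3 pairs, as was AT2TE78320. Its log2 differences were 0.96 in pkl (limma adjusted p = 0.429, and 0.00768 with the replicate block), 0.70 in nrpd1 (0.130 with the block) and -0.01 in nrpe1 (0.993 with the block). Neither gene reached the 2-fold threshold in any mutant, and whether the reads of AT2TE78320 belong to transcripts of these genes was not tested.

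AT1TE85165, a TE of 204 bp, was the lowest in pkl relative to WT. It had 0.540, 0.228 and 0.614 RPKM in pkl (2, 1 and 2 reads), against 4.90, 13.8 and 5.05 RPKM in WT (18, 43 and 20 reads). The groups did not overlap, the log2 difference was -3.74 ± 0.63 (SE), and the call was lost without pkl replicate 2. In nrpd1 it had 3.44, 8.81 and 13.2 RPKM and in nrpe1 5.03, 21.8 and 9.93 RPKM, overlapping WT. AT4TE44655 was also called lower in pkl, where it had 1, 0 and 0 reads, against 2, 2 and 5 reads in WT. With so few reads its call was lost when any WT library or pkl replicate 2 or 3 was left out.

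AT5TE17325, the remaining TE with primers, had 0.427, 0.298 and 0.253 RPKM in pkl, against 0.0936, 0.111 and 0.122 RPKM in WT. All pkl libraries were above all WT libraries, with a log2 difference of 1.01 ± 0.31 (SE) that was not called. In nrpd1 (0.109, 0.0957 and 0.162 RPKM) and nrpe1 (0.203, 0.0936 and 0.0738 RPKM) the libraries overlapped WT.

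The comparisons of nrpd1 and of nrpe1 with WT asked which TEs differ when polymerase IV or polymerase V is lost. In nrpd1, 3 of the 306 TEs were called higher (0.38% of all features) and 2 lower (0.591% of all features). The median log2 difference was -0.12 over these TEs and 0.04 over all features. With the replicate block 3 were called higher (0.98%, against 0.427% of all features) and 4 lower (1.31%, against 0.769%). The 2 lower became 1 without WT replicate 1, and 0 without WT replicate 2 or 3 or nrpd1 replicate 2 or 3. In nrpe1, 2 were called higher (0.351% of all features) and 2 lower (0.0845% of all features), with a median of -0.01 over these TEs and 0.01 over all features. The 2 lower became 1 when any WT library or nrpe1 replicate 1 or 3 was left out. With the replicate block 2 were called higher (0.654%, against 0.389% of all features) and 3 lower (0.98%, against 0.144%), the third being AT1TE91400. All 3 mutants share the WT libraries, so these comparisons are not independent of each other.

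AT4TE04415, a TE of 3158 bp, rose in all 3 mutants. It had 0.227, 0.634 and 0.992 RPKM in pkl (13, 43 and 50 reads), 4.75, 5.87 and 6.62 RPKM in nrpd1 (278, 392 and 435 reads) and 2.50, 2.99 and 3.05 RPKM in nrpe1 (131, 68 and 176 reads), against 0.0528, 0.0623 and 0.0815 RPKM in WT (3, 3 and 5 reads). No mutant library overlapped WT. The means were 9.42 times the WT mean in pkl, 87.7 times in nrpd1 and 43.4 times in nrpe1. The log2 differences were 1.95, 5.13 and 4.15, each ± 0.36 (SE). In pkl the call was lost when WT replicate 1 or 2 or pkl replicate 2 or 3 was left out.

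AT4TE27915, of 7846 bp, rose in nrpd1 and nrpe1. It had 180, 354 and 266 reads in nrpd1 (1.24, 2.13 and 1.63 RPKM) and 112, 73 and 144 reads in nrpe1 (0.861, 1.29 and 1.00 RPKM), against 1, 4 and 1 reads in WT. In pkl it had 1, 2 and 1 reads, at the level of WT. Against a WT mean with each library at no fewer than 3 reads, the mean was at least 67.2-fold higher in nrpd1 and at least 42.4-fold higher in nrpe1. On the log2 scale used the differences were 3.91 and 3.31, each ± 0.27 (SE).

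Both TEs called lower in nrpd1 were also called lower in nrpe1. AT2TE26610, of 2068 bp, had 0.522, 0.229 and 0.372 RPKM in nrpd1 and 0.0583, 0.268 and 0.238 RPKM in nrpe1, against 1.42, 1.84 and 2.12 RPKM in WT. It lay lower in every nrpd1 and nrpe1 library than in any WT library, with log2 differences of -2.03 and -2.79, each ± 0.35 (SE). In pkl it had 0.693, 0.721 and 0.757 RPKM, likewise below all WT libraries, and was not called (log2 difference -1.19). AT2TE22815, of 439 bp, had 1.47, 1.08 and 0.985 RPKM in nrpd1 and 1.37, 1.58 and 0.624 RPKM in nrpe1, against 5.31, 3.59 and 3.52 RPKM in WT. The log2 differences were -1.72 and -1.78, each ± 0.32 (SE). In nrpd1 the call of AT2TE26610 was lost without WT replicate 2 or 3 or nrpd1 replicate 2 or 3, and that of AT2TE22815 without any WT library or nrpd1 replicate 2 or 3. In nrpe1 the call of AT2TE22815 was kept in 1 of 6 fits without a library, that without nrpe1 replicate 2, and in 2 of 7 other alternatives. Neither TE was called in nrpd1 or in nrpe1 when only the groups compared were fitted.

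**Figure D2:**
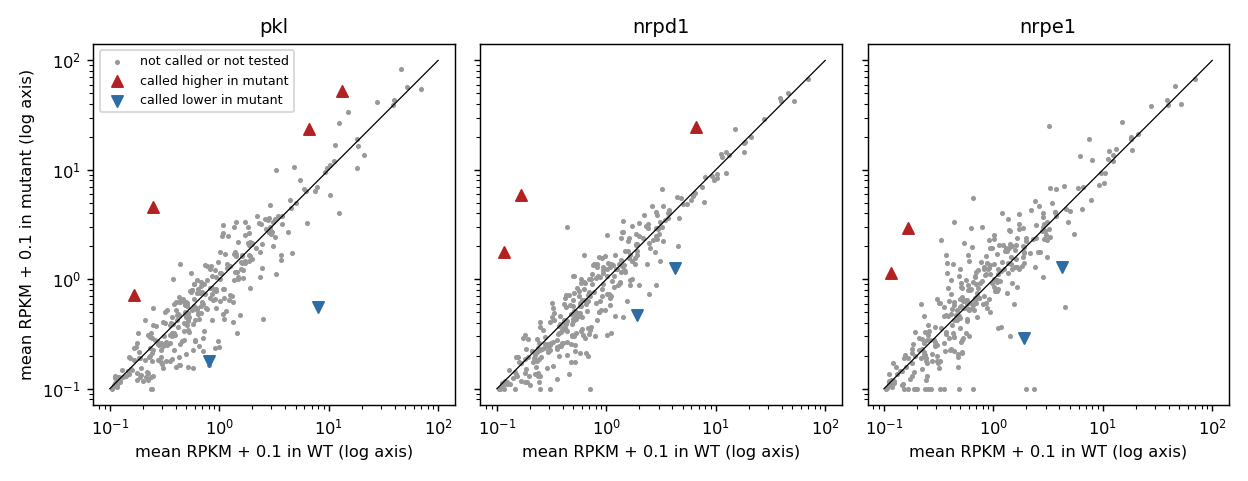
Mean RPKM + 0.1 of each of the 335 TEs in pkl, nrpd1 and nrpe1 (vertical log axes, 1 panel each) against WT (horizontal log axis), each mean over 3 libraries, with the line of equal values. Triangles mark the TEs called, 4 higher and 2 lower in pkl, 3 and 2 in nrpd1, and 2 and 2 in nrpe1. The other TEs lie about the line, more widely at low levels.

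One TE without a call, singled out after its values were seen, shows what a single library can do. AT2TE18115 had 8.32, 59.8 and 7.24 RPKM in nrpe1, against 2.87, 3.02 and 3.55 RPKM in WT. All nrpe1 libraries were above WT, and replicate 2, the library with the fewest reads, held 75 reads of this 174 bp TE, against 24 and 23 reads in nrpe1 replicates 1 and 3. In nrpd1 it had 9.30, 6.25 and 4.14 RPKM, also above all WT libraries, and was not called.

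The mutants were next compared with each other, so that the differences themselves hold no WT value. The WT libraries still entered the filter and the estimate of spread behind each p, and a fit without them lost 5 of the 13 calls that follow, those of AT2TE78320, AT2TE26610, AT2TE22815, AT4TE44655 and AT5TE36475. Between nrpd1 and nrpe1, AT2TE78320 was the only one of the 306 TEs called higher (0.0803% of all features) and none was called lower (0.532% of all features). It was higher in nrpd1 by 1.83 ± 0.27 on the log2 scale (adjusted p = 0.0102), in 3 of 3 nrpd1 libraries relative to all nrpe1 libraries. The adjusted p ran from 0.00222 to 0.145 over the alternatives, the highest from a fit of the 6 libraries alone. For this comparison 20 of the 306 TEs had an unadjusted limma p under 0.05, against 740 of all 23669 features, and nothing is read from this count. With the replicate block 1 TE was called higher (0.327%, against 0.0972% of all features) and 1 lower (0.327%, against 0.718%). The count of TEs lower was also 1 without nrpe1 replicate 1.

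Set against the mean of nrpd1 and nrpe1, 6 of the 306 TEs were called higher in pkl (1.62% of all features) and 6 lower (1.54% of all features). With the replicate block 13 were called higher (4.25%, against 2.4% of all features) and 16 lower (5.23%, against 2.4%), and without pkl replicate 2 or pkl replicate 3 the count of higher TEs was 2. Among those lower only with the block were AT5TE76490 (log2 difference -1.31) and AT5TE34945 (-1.35), with limma adjusted p = 0.577 and 0.267 without it. The SEs, adjusted p and other TEs named for this comparison are from the fit without the block. The median log2 difference was -0.06 over the TEs and 0.04 over all features. AT4TE10320 was higher in pkl by 3.69 ± 0.24 (adjusted p = 1.31e-05) and AT4TE12660 by 1.86 ± 0.18 (adjusted p = 0.000141), in all 3 pkl libraries relative to the 6 others. These calls were kept in every alternative fitted, with adjusted p up to 0.000262 and up to 0.00157.

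The other 4 TEs higher in pkl had smaller differences that depended on single libraries. AT1TE57925, of 141 bp, had 8.99, 9.91 and 12.4 RPKM in pkl, against 6.89, 4.36 and 5.11 RPKM in nrpd1 and 3.42, 3.94 and 2.33 RPKM in nrpe1 (log2 difference 1.31 ± 0.26, adjusted p = 0.0153, up to 0.0909 without pkl replicate 2 or 3). AT1TE42250, of 445 bp, had 3.22, 2.09 and 2.25 RPKM in pkl, against 1.09, 1.06 and 1.40 RPKM in nrpd1 and 0.678, 1.25 and 0.615 RPKM in nrpe1 (1.26 ± 0.27, adjusted p = 0.0220, up to 0.101 without a pkl library). In neither did a pkl library overlap the nrpd1 and nrpe1 libraries. AT2TE26610 was higher in pkl by 1.23 ± 0.31 (adjusted p = 0.0438, up to 0.155), a call lost without pkl replicate 1, 2 or 3, nrpd1 replicate 2 or 3 or nrpe1 replicate 3, and in 4 of 7 other alternatives. AT2TE22815 was higher by 1.09 ± 0.28 (adjusted p = 0.0483, up to 0.221), a call that was kept in only 2 of 9 fits without a library, those without nrpd1 replicate 1 or nrpe1 replicate 2, and in 1 of 7 other alternatives, the replicate block.

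Of the TEs lower in pkl than in nrpd1 and nrpe1, AT4TE27915 and AT4TE04415 were those called higher than WT in nrpd1 and nrpe1. The log2 difference of pkl was -3.69 ± 0.23 for AT4TE27915 and -2.69 ± 0.32 for AT4TE04415 (adjusted p = 0.000672). AT4TE27915 averaged 0.00896 RPKM in pkl and 0.0157 RPKM in WT, under the filter of 0.1 RPKM. It was tested only through its nrpd1 and nrpe1 libraries, the side where it is high, so its p is not given. AT1TE58335, of 555 bp, had 0, 1 and 1 reads in pkl, against 15, 38 and 46 reads in nrpd1 and 24, 2 and 67 reads in nrpe1 (-3.98 ± 0.70, adjusted p = 0.00797). In WT it had 2, 6 and 1 reads. All libraries of nrpd1 and nrpe1 were above those of pkl, though nrpe1 replicate 2 held only 2 reads. For AT1TE85165 the log2 difference was -4.05 ± 0.55 (adjusted p = 0.00166). The calls of AT4TE04415, AT1TE58335 and AT1TE85165 were kept in every alternative fitted, with adjusted p of 0.0402 at most.

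The last calls rested on few reads. AT5TE36475, of 981 bp, had 1, 3 and 2 reads in pkl, against 8, 14 and 6 reads in nrpd1 and 7, 2 and 12 reads in nrpe1 (-1.41 ± 0.33, adjusted p = 0.0340, up to 0.131). Of the 9 fits without a library, only those without nrpd1 replicate 3 or nrpe1 replicate 2 kept the call. AT4TE44655 had 1, 0 and 0 reads in pkl, against 3, 3 and 1 reads in nrpd1 and 2, 1 and 3 reads in nrpe1 (-2.06 ± 0.46, adjusted p = 0.0264, up to 0.139), with libraries that overlapped in RPKM. Its call was kept in 3 of these 9 fits, those without pkl replicate 1, nrpd1 replicate 3 or nrpe1 replicate 1.

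**Figure D3:**
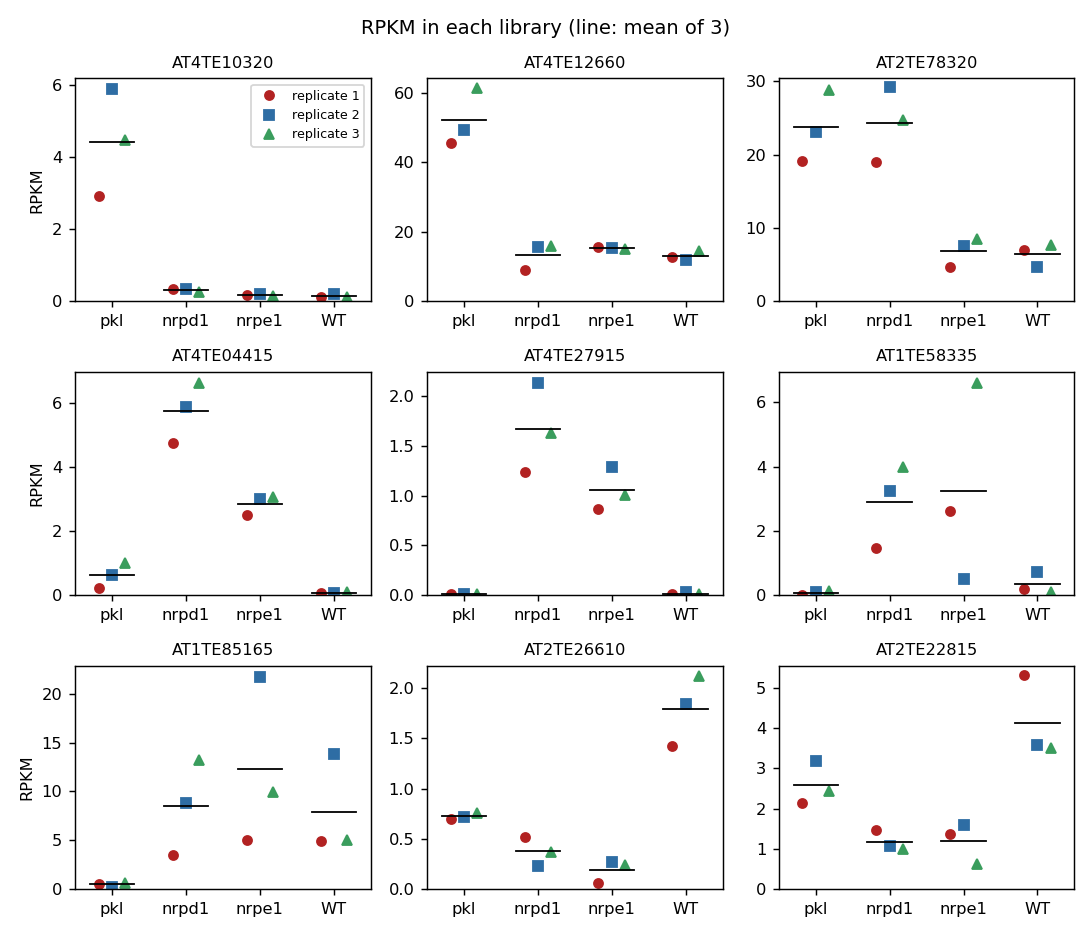
RPKM of 9 TEs in each library of pkl, nrpd1, nrpe1 and WT (points, by replicate number), with the mean of each genotype as a line and a vertical axis from 0 in each panel. AT4TE10320 and AT4TE12660 stand apart in pkl alone, AT2TE78320 in pkl and nrpd1, AT4TE27915 in nrpd1 and nrpe1, and AT2TE26610 and AT2TE22815 are highest in WT.

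More of the 306 TEs tested were called between replicate 1 and replicates 2 and 3 (22.2%) than between genotypes (up to 3.92% without the replicate block). The same order held over all features, with 6.63% between replicates and up to 3.16% between genotypes. These fits differ in the libraries on each side and in the terms of the model. The median RPKM of the 335 TEs was 0.260 to 0.361 in the 4 libraries numbered 1 and 0.475 to 0.775 in the 8 numbered 2 or 3. The ranges did not overlap, in any genotype. The share of all reads on the 335 TEs was 0.0234% to 0.0300% in replicate 1 and 0.0326% to 0.0403% in replicates 2 and 3. Library totals of replicate 1, 16580757 to 18536446 reads, lay within the range of the others.

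**Figure D4:**
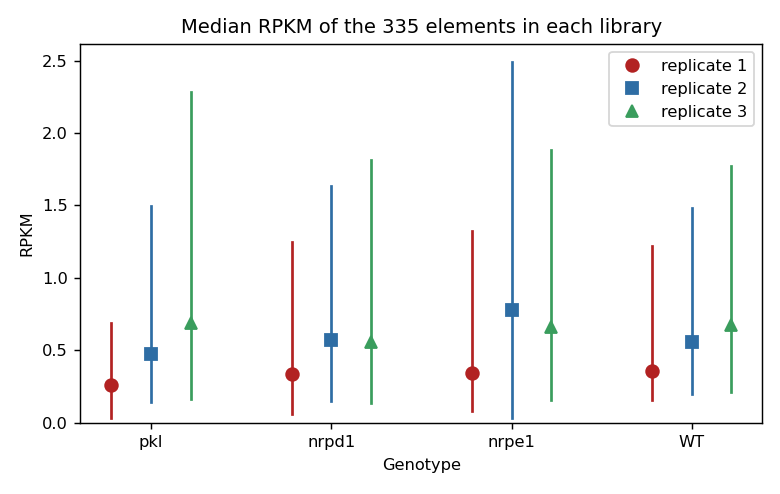
Median RPKM of the 335 TEs in each of the 12 libraries (points), with the 25th to 75th percentile as bars, by genotype and replicate number. Replicate 1 is the lowest of the 3 in every genotype, at 0.260 to 0.361, against 0.475 to 0.775 in replicates 2 and 3.

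The difference was tested in the 9 mutant libraries, whose values the rule did not use, with genotype in the model. In replicate 1, 63 of the 306 TEs were lower than in replicates 2 and 3 (20.6%, against 4.48% of all features) and 5 were higher (1.63%, against 2.15% of all features). The libraries of the 2 sides did not overlap for 55 lower TEs (18%, against 15.8% of all features) and for 4 higher TEs (1.31%, against 8% of all features). The share of TEs that did not overlap was therefore near the background for the lower ones. The median log2 difference was -0.52 over the 306 TEs, -0.40 over the 659 other TEs tested, -0.09 over the genes and -0.10 over all features. Among the other TEs 51 were lower and 15 higher, so a lower level in replicate 1 was not limited to the TEs above 0 in WT.

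In WT, whose libraries did not enter this fit but chose the TEs and entered the filter on low values, the order is given as a description. WT replicate 1 was below both other WT libraries for 57 of the 63. Over all 306 TEs tested this held for 161 (52.6%). In the mutants the same order was seen for 60 of the 63 in pkl, 62 in nrpd1 and 63 in nrpe1, which are the libraries that chose them. Summed over the 63, the RPKM was 43.4 in pkl replicate 1, 47.9 in nrpd1 replicate 1, 51.9 in nrpe1 replicate 1 and 59.5 in WT replicate 1, against 146 to 250 in the 8 libraries of replicates 2 and 3.

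AT1TE06560, of 198 bp, had the largest such difference. It had 0.278, 0 and 1.22 RPKM in replicate 1 of pkl, nrpd1 and nrpe1, against 3.76 and 6.96 RPKM in pkl, 6.45 and 3.64 RPKM in nrpd1 and 8.41 and 4.98 RPKM in nrpe1 in replicates 2 and 3. The 2 sides did not overlap, and the log2 difference was -3.91 ± 0.53 (adjusted p = 0.00103, up to 0.0101 over the alternatives). In WT it had 0.561 RPKM in replicate 1, against 4.97 and 4.42 RPKM in replicates 2 and 3. AT3TE24620 (-3.53 ± 0.66, adjusted p = 0.00507), AT2TE44710 (-3.37 ± 0.59, adjusted p = 0.00367), AT2TE02390 (-3.33 ± 0.50, adjusted p = 0.00173), AT1TE11810 (-3.21 ± 0.54, adjusted p = 0.00326) and AT4TE02340 (-2.99 ± 0.33, adjusted p = 0.000375) followed. All 6 kept their calls in each alternative, with adjusted p of 0.0454 at most.

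Among the 10 highest TEs in WT, AT2TE19930 was called lower in replicate 1. It had 18.4, 13.8 and 17.0 RPKM in replicate 1 of pkl, nrpd1 and nrpe1, against 38.7 to 70.2 RPKM in the 8 libraries of replicates 2 and 3, WT included (-1.74 ± 0.19, adjusted p = 0.000393, up to 0.00541). WT replicate 1 had 21.4 RPKM, below both other WT libraries. TEs at low and at high levels in WT were thus among those called.

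The 5 TEs higher in replicate 1 were AT4TE34435 (3.39 ± 1.09, adjusted p = 0.0484), AT4TE76870 (1.66 ± 0.32, adjusted p = 0.00626), AT5TE18970 (1.61 ± 0.44, adjusted p = 0.0265), AT4TE11410 (1.39 ± 0.43, adjusted p = 0.0420) and AT1TE91400 (1.09 ± 0.33, adjusted p = 0.0387). Only AT4TE76870 kept its call whichever library was left out, with 0.537, 0.526 and 0.321 RPKM in replicate 1 of pkl, nrpd1 and nrpe1, against 0 to 0.222 RPKM in replicates 2 and 3 of these mutants. The adjusted p reached 0.281 for the other 4. The count of 5 was 1 without replicate 1 of nrpd1 or of nrpe1, 2 without nrpd1 replicate 3, 3 without replicate 3 of pkl or of nrpe1, and 8 without nrpe1 replicate 2, while the count of 63 ran from 47 to 65.

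The share of TEs called lower was counted by length, with no test between lengths. Over all features of any length 4.48% were lower. Genes and other TEs were not counted by length, so whether the order by length is particular to the 306 TEs was not tested. Of the 120 tested TEs of 200 to 499 bp, 36 were lower in replicate 1 (30%), against 15 of 77 shorter TEs (19.5%), 11 of 64 TEs of 500 to 999 bp (17.2%) and 1 of 45 TEs of at least 1000 bp (2.22%). The median log2 difference was -0.93 in TEs of 200 to 499 bp, -0.52 in shorter ones, -0.38 at 500 to 999 bp and -0.19 in the longest. The 63 lower TEs had a median length of 300 bp, against 348 bp over the 306 tested.

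Other transcripts moved with the replicate number. LHCB2.1, the only leaf marker of 3 to be called, was higher in replicate 1 by 2.26 ± 0.22 on the log2 scale (adjusted p = 0.000213), with 2650, 3374 and 3374 RPKM in replicate 1 of pkl, nrpd1 and nrpe1, against 350 to 965 RPKM in their replicates 2 and 3. RCA was also higher in replicate 1, by 0.84 ± 0.14 (limma adjusted p = 0.00266), under the 2-fold threshold. The log2 difference of RBCS1A was -0.05. The labels give no batch, date or time of day for the replicates, and the part of these differences in the lower TE levels was not tested.

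**Figure D5:**
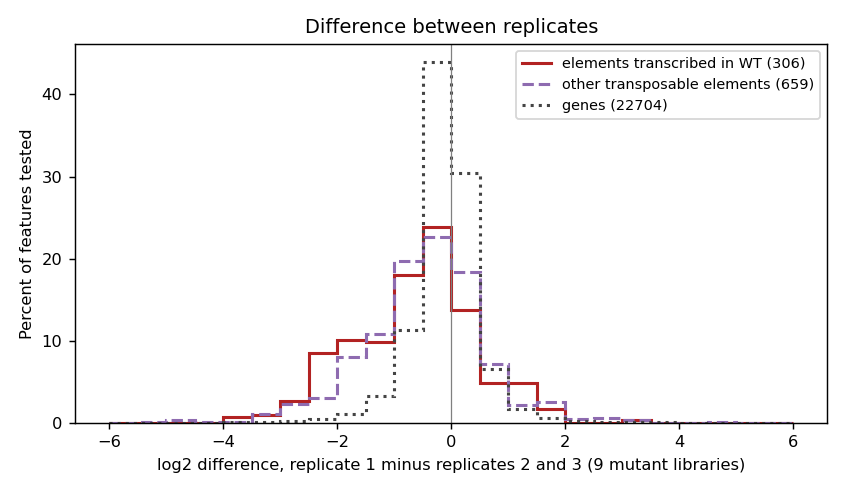
Distribution of the log2 difference of replicate 1 minus replicates 2 and 3 over the 9 mutant libraries, as the percent of features per bin of 0.5, for the 306 TEs above 0 in WT, the 659 other TEs and the 22704 genes tested. The median of the TEs above 0 in WT lies farther to the left than that of the genes, at -0.52 against -0.09.

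Known silencing genes were measured beside the TEs. Of 31 genes of RdDM, methylation maintenance and related silencing, all tested, ROS1 was the only one called against WT. ROS1 is a DNA glycosylase that removes DNA methylation. It had 1.73, 2.00 and 2.11 RPKM in pkl, 0.0572, 0.010 and 0.0102 RPKM in nrpd1 and 1.05, 1.18 and 0.976 RPKM in nrpe1, against 11.2, 11.1 and 15.6 RPKM in WT. It was lower in every library of the mutants, with log2 differences of -2.62 (adjusted p = 0.000191), -6.66 (adjusted p = 1.7e-07) and -3.43 (adjusted p = 1.39e-05), each ± 0.21 (SE). With the replicate block NRPE1 was also called, lower in nrpe1. Between nrpd1 and nrpe1 the calls were ROS1 (-3.23), NRPD1 (-1.15) and NRPE1 (1.71), and without nrpd1 replicate 1 or 3 or nrpe1 replicate 2 or 3 a single call was left. ROS1 was higher in pkl than in the mean of nrpd1 and nrpe1 (2.42), and none of the 31 was called between replicates, where the median log2 difference was 0.08.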

How the data were processed

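The TEs and gene lists described here were chosen with earlier results of these data known. The deposited table holds RPKM values of 33602 genes and 31189 TEs in 12 libraries. Per their methods the authors made stranded poly(A) libraries, trimmed reads, aligned them to TAIR10 with Subread, counted them over genes and TEs and divided by length and library total. The submitters' processing notes name CASAVA 1.8, Trim Galore 0.4.0, Subread 1.5.1 and edgeR. The treatment of reads with several positions or in overlapping features is not given in the sources used here, and the table gives no coordinates of TEs.

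From these values, library totals, feature lengths and reads were recovered as whole multiples of 1 read (100% of features whole within 0.001 read, at least 99.999827% of each total). The recovered numbers are the smallest that fit, since a factor common to a feature's libraries cannot be seen. Each difference came from limma 3.58.1 run under R 4.3.3 (trended eBayes) on log2(RPKM + 0.1), with 1 mean per genotype over 12 libraries, for features of at least 0.1 RPKM in at least 3 libraries. The replicate comparison used the 9 mutant libraries with genotype terms. Both steps were tested on simulated data. P-values measure the spread between samples labelled as biological replicates. Alternatives were pseudocounts of 0.01 and 1, no filter, median-ratio scaling, voom on recovered reads, only the groups compared, the replicate block, and leaving out each library. Median-ratio scaling shifts a library by -0.10 to 0.11 on the log2 scale.

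Same-numbered libraries deviated together from their genotype means (r = 0.149 to 0.600 in 18 of 18 pairs over all features). The same number correlated best in 32 of 36 library comparisons. An exception was nrpe1 replicate 2, with r = 0.201 to WT replicate 3 and 0.149 to WT replicate 2. The numbers from the titles were taken to pair the libraries, and counts with the block are given beside those without. The SEs, and the adjusted p and named calls unless the block is mentioned, come from fits without the block and so leave the pairing out. TEs named are the 10 highest in WT, those called with non-overlapping libraries (up to 8 a direction for genotypes), up to 6 a direction between replicates, those with primers, and up to 3 on each side of the rule. AT2TE18115, AT5TE76490 and AT5TE34945, and AT4TE44655 in the comparison of pkl with nrpd1 and nrpe1, were named beyond that rule after their values were seen.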

Additional observations from a re-analysis of the deposited data

Results flagged for a closer look

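These TEs are listed because mutants differed in a direct test, either nrpd1 against nrpe1 or pkl against the mean of both. The tests were in limma with adjustment over all features. No test set pkl against nrpd1 alone or against nrpe1 alone. The WT libraries entered the estimate of spread, and the calls of AT2TE78320, AT2TE26610, AT2TE22815, AT4TE44655 and AT5TE36475 were lost in a fit without them. AT2TE78320 was higher in nrpd1 than in nrpe1, by 1.83 on the log2 scale. Against the mean of nrpd1 and nrpe1, the log2 difference of pkl was 3.69 for AT4TE10320, 1.86 for AT4TE12660, 1.31 for AT1TE57925, 1.26 for AT1TE42250, 1.23 for AT2TE26610 and 1.09 for AT2TE22815. It was -4.05 for AT1TE85165, -3.98 for AT1TE58335, -3.69 for AT4TE27915, -2.69 for AT4TE04415, -2.06 for AT4TE44655 and -1.41 for AT5TE36475. AT4TE44655 and AT5TE36475 rested on at most 3 reads in any pkl library. AT4TE27915 passed the filter on low values only through its nrpd1 and nrpe1 libraries, where it is high. Groups of 3 libraries are too small for a test of single outlying samples.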

How the results depend on the processing

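No direction was reversed in any alternative. Leaving out 1 library at a time, the count of TEs called in pkl against WT ran from 3 to 5 higher and 1 to 2 lower, in nrpd1 from 3 to 3 higher and 0 to 2 lower, and in nrpe1 from 2 to 3 higher and 1 to 2 lower. It ran from 1 to 1 higher and 0 to 1 lower in nrpd1 against nrpe1, from 2 to 8 higher and 4 to 6 lower in pkl against their mean, and from 1 to 8 higher and 47 to 65 lower in replicate 1. With the replicate block 9 were higher and 10 lower in pkl against WT, 4 lower in nrpd1, 1 lower in nrpd1 against nrpe1, and 13 higher and 16 lower in pkl against their mean. A pseudocount of 0.01 gave 1 lower in pkl, 1 lower in nrpd1, 2 higher in nrpd1 against nrpe1 and 3 higher in replicate 1. A pseudocount of 1 gave 1 lower in pkl, 3 higher in pkl against the mean, and 3 higher and 26 lower in replicate 1. On recovered reads (voom) 0 were lower in pkl and 1 in nrpe1. In nrpe1 against WT the fit of only the groups compared also called 2 lower, neither of them AT2TE26610 or AT2TE22815. Fits of only the groups compared gave 0 lower in nrpd1 and 0 higher in nrpd1 against nrpe1. Median-ratio scaling gave 1 lower in nrpe1 and 8 higher in replicate 1, no filter 2 higher in replicate 1, and all 12 libraries 9 higher. Of the 31 silencing genes, the block called 2 in nrpe1. The 3 called in nrpd1 against nrpe1 became 1 with a pseudocount of 1, 0 with only the groups compared, and 1 to 2 without a library. The cause was not tested, beyond the fewer samples where libraries were left out. Depth limits most of the 335 TEs, of which 132 had at least 3 reads in each WT library.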
